A study of Homo sapiens with 4 samples.

Results

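Chemokine signalling in OCI-AML3 cells was described through 10 genes, 5 encoding secreted or membrane-bound ligands (CCL2, CCL5, PPBP, CXCL8 and CXCL16) and 5 encoding receptors (CCR1, CCR2, CXCR4, CX3CR1 and CXCR2). They are 10 of the 69 chemokine ligand and receptor genes with a row in the count table, which has 67062 rows in all. The 10 genes were chosen by earlier results of the same comparison of vectors, so their fold changes are given as a description. Where the text says that one of the 10 passed or missed the edgeR threshold, this describes its place in the fit over all genes and supports nothing. OCI-AML3 is an established human acute myeloid leukaemia line whose NPM1 gene carries the mutation that sends its protein to the cytoplasm (NPM1c+). PIG-LONA cells carried a pMSCV-PIG retrovirus in which an RNA polymerase II promoter drives the long non-coding RNA LONA, and PIG-EMPTY cells carried the same vector without an insert. Both vectors also express puromycin resistance and GFP from a PGK promoter, and both cultures were sorted for GFP-positive cells. Each vector was introduced in 2 independent transductions, each giving 1 poly(A) RNA library, so each group has 2 libraries of 1 cell line. The series title names myeloid differentiation as the process of interest. LONA was not matched to a row of the table by name, so the vector labels stand here without a check on that RNA.

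Chemokines are small proteins that guide leukocyte movement. They bind G-protein-coupled receptors on the target cell, and the receptor then signals through inhibitory G proteins to phosphoinositide 3-kinase, Rac and the actin cytoskeleton until kinases and arrestins silence it. Monocytes leave the bone marrow through CCL2 and CCR2, neutrophils follow CXCL8 and related ligands through CXCR2, and leukaemic cells are held in marrow niches through CXCR4. Many of the ligand genes lie in clusters on chromosomes 4 and 17 and many CC receptor genes lie together on chromosome 3.

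Start-region sequences were matched in RefSeq (GRCh38.p14) for 7 of the 10 genes, as 11 windows of 250 bases that end just before an annotated transcription start, and the sequences of CCL2, CCL5 and CXCL16 are not shown. The windows of PPBP and CXCL8 are shown because these 2 ligand genes lie on the same stretch of chromosome 4 and had the most and the least negative fold change of the 10, and CCR2 is shown as the receptor with the most negative one. Each runs 5′ to 3′ on the strand of its gene, and capitals mark letters that matched a searched motif. The start sites are those of RefSeq. By the GENCODE 29 coordinates given below, the CCR2 window lies inside the gene, and the CXCL8 and PPBP windows reach into theirs.
PPBP, chr4:73988191-73988440, minus strand: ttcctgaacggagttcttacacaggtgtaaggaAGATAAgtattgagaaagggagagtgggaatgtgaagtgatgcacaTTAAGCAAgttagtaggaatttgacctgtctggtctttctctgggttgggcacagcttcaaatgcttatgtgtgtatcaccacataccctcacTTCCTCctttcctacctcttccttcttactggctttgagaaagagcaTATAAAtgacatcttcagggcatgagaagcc
CXCL8, chr4:73740319-73740568, plus strand: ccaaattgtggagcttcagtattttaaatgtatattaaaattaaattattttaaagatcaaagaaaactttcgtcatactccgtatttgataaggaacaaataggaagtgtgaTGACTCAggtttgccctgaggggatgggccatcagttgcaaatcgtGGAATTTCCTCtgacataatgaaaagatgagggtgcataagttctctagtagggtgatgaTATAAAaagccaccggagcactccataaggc
CCR2, chr3:46353861-46354110, plus strand: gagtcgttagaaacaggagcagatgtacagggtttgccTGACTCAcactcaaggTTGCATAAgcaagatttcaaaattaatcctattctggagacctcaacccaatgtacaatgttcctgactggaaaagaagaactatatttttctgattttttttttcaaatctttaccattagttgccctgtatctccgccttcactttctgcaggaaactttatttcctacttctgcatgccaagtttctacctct

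Both strands were searched for 6 short motifs, and positions are the distance of a match's first printed base before the start site. The CXCL8 window held an AP-1 motif (TGANTCA) 137 bases before the start, a kappaB-type core (GGANNTTCC) at 91, a PU.1-type ETS core (GAGGAA, here on the opposite strand) at 86 that overlaps the kappaB-type letters, and a TATA box (TATAAA) at 31. The PPBP window had no AP-1 or kappaB-type match. It held a GATA motif (AGATAA) at 217, a C/EBP motif (TTGCNNAA, here on the opposite strand) at 171, a PU.1-type core at 78 and a TATA box at 31. In CCR2, an AP-1 motif stood at 212 and a C/EBP motif at 196. The window of CCR1, another CC receptor gene of the chromosome 3 cluster, held none of the 6 motifs. Among all 34943 RefSeq windows of this length, 3.84% held the kappaB-type core, 6.59% the AP-1 motif, 9.06% the C/EBP motif, 23.6% the PU.1-type core, 9.19% the GATA motif and 10.8% the TATA box. Such matches describe letters in a window and do not show that a factor binds there.

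Library totals were 30181550 and 38358442 counts in PIG-LONA cells and 29819572 and 32350832 counts in PIG-EMPTY cells. Levels are given as CPM, counts scaled to a common TMM-adjusted library total, and fold changes as log2 of PIG-LONA over PIG-EMPTY from edgeR ± its standard error (SE). A gene was called at a Benjamini-Hochberg adjusted p under 0.05 over all 15918 tested genes. Of these, 1024 were called, or 6.43%, and 557 were called lower in PIG-LONA cells, or 3.5%. This total depended on the libraries used. With 1 library left out, it fell without either PIG-EMPTY replicate and rose without either PIG-LONA replicate. Mitochondrial genes took 7.1% and 6.32% of the counts in PIG-LONA libraries, against 6.8% and 6.61% in PIG-EMPTY libraries. CD33, a myeloid surface receptor, had 98.3 and 99.8 CPM in PIG-LONA cells and 100 and 104 CPM in PIG-EMPTY cells. It is 1 of 10 myeloid leukaemia markers looked at, which differed widely in level. ELANE, SPI1, CEBPA, HOXA9, MEIS1 and FLT3 stood far above MPO in every library. MPO had 2.1 and 2.78 CPM in PIG-LONA cells and 2.78 and 2.58 CPM in PIG-EMPTY cells. CD34 had 24 and 28 counts in PIG-LONA libraries and 27 and 40 counts in PIG-EMPTY libraries. KIT had 0 and 0 counts in PIG-LONA libraries and 2 and 1 counts in PIG-EMPTY libraries.

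The 10 genes took up most of the chemokine signal of these cells. They held 90.8% and 91.5% of all counts on chemokine family genes in PIG-LONA libraries, against 90.4% and 91.5% in PIG-EMPTY libraries. As a share of the whole library they held 0.0803% and 0.0758% in PIG-LONA cells, against 0.0856% and 0.085% in PIG-EMPTY cells. All 10 passed the filter on low counts. All 10 had a negative log2 fold change, although CXCL8 and CXCL16 turned positive when 1 library was left out, and the values had a median of −0.21 and a range of −2.41 to −0.04. Over all tested genes the median was 0.00, and 7902 of 15918 had a negative value. The edgeR call of lower expression was met by 5 of the 10 (CCL2, CCL5, PPBP, CCR2 and CX3CR1), beside a background of 3.5%, and nothing is read from that count because the same comparison chose the genes. The call was lost by CCL5 and CX3CR1 when PIG-EMPTY replicate 2 was left out, and also when no filter on low counts was used, which left 3 of the 10 in either case. For 8 of the 10, both PIG-LONA libraries lay below both PIG-EMPTY libraries, beside 24.4% of all tested genes with that arrangement.

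**Figure D1:**
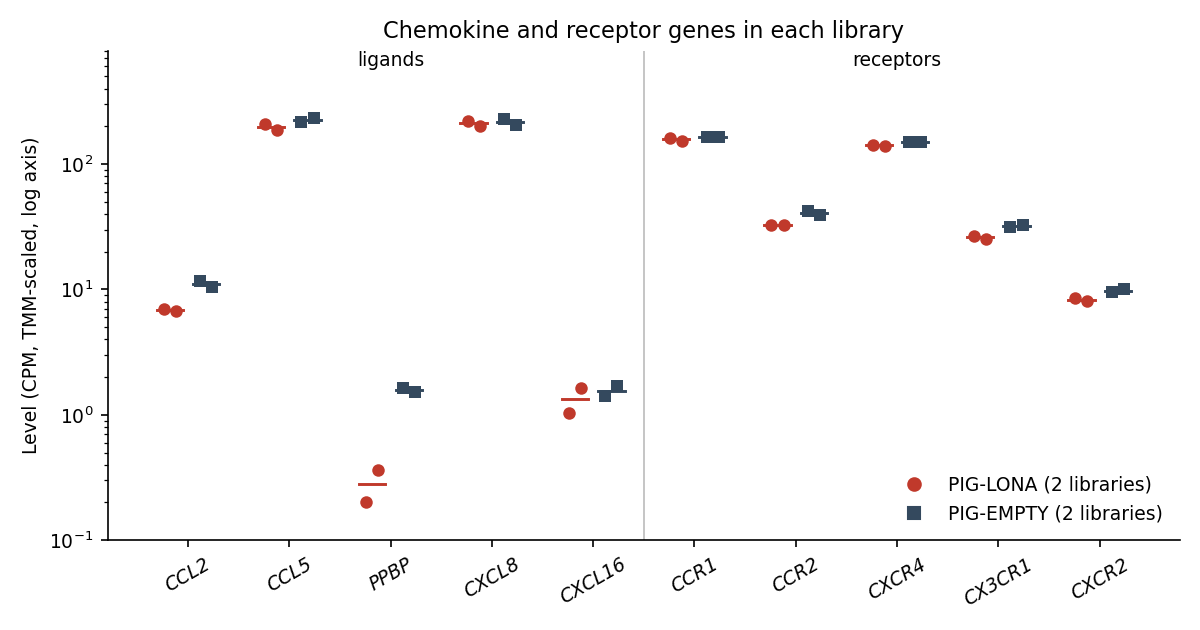
CPM of the 10 genes in each library on a log axis, PIG-LONA circles left of PIG-EMPTY squares, with a bar at each group mean of 2 libraries. PPBP shows the widest gap between the groups, while the points of CXCL8 and CXCL16 overlap.

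CCL2 (ENSG00000108691), the main ligand of CCR2 and a strong attractant of monocytes, lies on chromosome 17 at 34255218 to 34257203 on the plus strand (GENCODE 29, GRCh38). It had 7.04 and 6.76 CPM in PIG-LONA cells, against 11.7 and 10.5 CPM in PIG-EMPTY cells. The groups did not overlap, and the gap was several times the spread within either group. The mean was 6.9 ± 0.204 CPM in PIG-LONA cells and 11.1 ± 0.817 CPM in PIG-EMPTY cells (SD, n = 2 each), a ratio of 0.622 and a log2 fold change of −0.69 ± 0.10 (SE).

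PPBP (ENSG00000163736) encodes the precursor of CXCL7, a platelet chemokine that acts on CXCR2, and lies on chromosome 4 at 73987038 to 73988197 on the minus strand. It had 6 and 14 counts in PIG-LONA libraries, against 49 and 49 counts in PIG-EMPTY libraries. The exact Poisson 95% intervals, which cover counting error only, were 2.2 to 13.1 and 7.65 to 23.5 counts in PIG-LONA libraries and 36.3 to 64.8 counts in each PIG-EMPTY library. The intervals of the groups were apart, which supports nothing because the same comparison chose the gene. The PPBP counts were the lowest of the 10 genes in PIG-LONA libraries. The means were 0.282 ± 0.116 CPM in PIG-LONA cells and 1.58 ± 0.0967 CPM in PIG-EMPTY cells (SD, n = 2 each). The ratio was 0.179 and the log2 fold change −2.41 ± 0.34 (SE), and 5 of all tested genes had a more negative value. The summed CPM of 8 megakaryocyte and platelet markers, PPBP among them, was 2.84 and 2.75 in PIG-LONA cells and 4.73 and 3.51 in PIG-EMPTY cells. This sum contains the difference of PPBP itself, which had 0.2 and 0.364 CPM in PIG-LONA cells and 1.64 and 1.51 CPM in PIG-EMPTY cells. PF4, GP1BA and GP9, which are defining platelet genes, had 0 counts in all libraries. ITGA2B, a platelet integrin subunit, had 22 and 41 counts in PIG-LONA libraries and 26 and 22 counts in PIG-EMPTY libraries. ITGB3, its partner subunit, had 29 and 27 counts in PIG-LONA libraries and 29 and 18 counts in PIG-EMPTY libraries, and GP6, the platelet collagen receptor, had 28 and 21 counts in PIG-LONA libraries and 37 and 23 counts in PIG-EMPTY libraries. These 3 genes were tested and did not pass the threshold, and their part in the PPBP values was not tested.

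CCL5 (ENSG00000271503), also known as RANTES, binds CCR1 and CCR3 among other receptors and lies on chromosome 17 at 35871491 to 35880793 on the minus strand. Its levels were 208 and 188 CPM in PIG-LONA cells and 217 and 231 CPM in PIG-EMPTY cells. The lower PIG-EMPTY library stood only slightly above the higher PIG-LONA library. Means were 198 ± 14.1 CPM in PIG-LONA cells and 224 ± 9.94 CPM in PIG-EMPTY cells (SD, n = 2 each), a ratio of 0.884 and a log2 fold change of −0.18 ± 0.05 (SE). Without PIG-EMPTY replicate 2 the log2 fold change was −0.13.

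CXCL8 (ENSG00000169429), or interleukin 8, attracts neutrophils through CXCR1 and CXCR2 and lies on chromosome 4 at 73740506 to 73743716 on the plus strand. It measured 221 and 200 CPM in PIG-LONA cells, against 228 and 203 CPM in PIG-EMPTY cells. The groups overlapped, and in both of them replicate 1 was the higher library. With means of 210 ± 14.8 CPM in PIG-LONA cells and 216 ± 17.6 CPM in PIG-EMPTY cells (SD, n = 2 each), the log2 fold change was −0.04 ± 0.05 (SE). Its sign turned positive when PIG-EMPTY replicate 1 (0.05) or PIG-LONA replicate 2 (0.04) was left out. With PIG-LONA replicate 1 left out the value was −0.11 and past the threshold.

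CXCL16 (ENSG00000161921), a membrane-anchored ligand that is shed by proteases and binds CXCR6, lies on chromosome 17 at 4733526 to 4739922 on the minus strand. Its counts were low, at 31 and 63 in PIG-LONA libraries and 42 and 55 in PIG-EMPTY libraries. In CPM these were 1.03 and 1.64 in PIG-LONA cells and 1.41 and 1.69 in PIG-EMPTY cells, so the groups overlapped. The log2 fold change was −0.18 ± 0.26 (SE), less than its own error, and it was 0.07 without PIG-LONA replicate 1. MED11, on the opposite strand, overlaps CXCL16 and had 464 and 581 counts in PIG-LONA libraries and 466 and 536 counts in PIG-EMPTY libraries. The strand setting of the counting is not given, so reads of the overlap cannot be assigned with certainty.

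Among the receptors, CCR2 (ENSG00000121807), which carries the monocyte response to CCL2, lies on chromosome 3 at 46353734 to 46360928 on the plus strand. It had 32.6 and 32.9 CPM in PIG-LONA cells, against 42.4 and 39.5 CPM in PIG-EMPTY cells. The PIG-LONA libraries lay close together and below both PIG-EMPTY libraries. Means were 32.8 ± 0.156 CPM in PIG-LONA cells and 40.9 ± 2.08 CPM in PIG-EMPTY cells (SD, n = 2 each), a ratio of 0.8 and a log2 fold change of −0.32 ± 0.06 (SE).

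CX3CR1 (ENSG00000168329), the receptor of the membrane-bound chemokine fractalkine and a marker of patrolling monocytes, lies on chromosome 3 at 39263494 to 39281735 on the minus strand. It measured 26.8 and 25.4 CPM in PIG-LONA cells and 31.3 and 32.6 CPM in PIG-EMPTY cells. The groups were apart by more than the spread within them, with means of 26.1 ± 0.999 CPM in PIG-LONA cells and 32 ± 0.943 CPM in PIG-EMPTY cells (SD, n = 2 each). Its ratio was 0.815 and its log2 fold change −0.30 ± 0.06 (SE), which became −0.27 without PIG-EMPTY replicate 2.

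CXCR2 (ENSG00000180871), the receptor for CXCL8, CXCL1 and the PPBP product, lies on chromosome 2 at 218125289 to 218137253 on the plus strand. Its levels were 8.48 and 8.11 CPM in PIG-LONA cells and 9.5 and 10.1 CPM in PIG-EMPTY cells. They did not overlap, but the log2 fold change of −0.24 ± 0.10 (SE) did not pass the threshold at 254 to 327 counts per library.

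CXCR4 (ENSG00000121966), the CXCL12 receptor that retains cells in the marrow, lies on chromosome 2 at 136114349 to 136118165 on the minus strand. It had 143 and 139 CPM in PIG-LONA cells, against 150 and 151 CPM in PIG-EMPTY cells. The groups were apart but close, with a ratio of 0.934 and a log2 fold change of −0.10 ± 0.04 (SE) that passed the threshold only without PIG-LONA replicate 1 (−0.12) among the leave-one-out fits.

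CCR1 (ENSG00000163823), a receptor for CCL5 and CCL3 on monocytes and neutrophils, lies on chromosome 3 at 46201709 to 46208396 on the minus strand. It measured 162 and 153 CPM in PIG-LONA cells, against 164 and 164 CPM in PIG-EMPTY cells. PIG-LONA replicate 1 was nearly level with the PIG-EMPTY libraries, and the log2 fold change was −0.06 ± 0.04 (SE). CCR3 overlaps it on the opposite strand, with 19 and 23 counts in PIG-LONA libraries and 21 and 27 counts in PIG-EMPTY libraries.

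**Figure D2:**
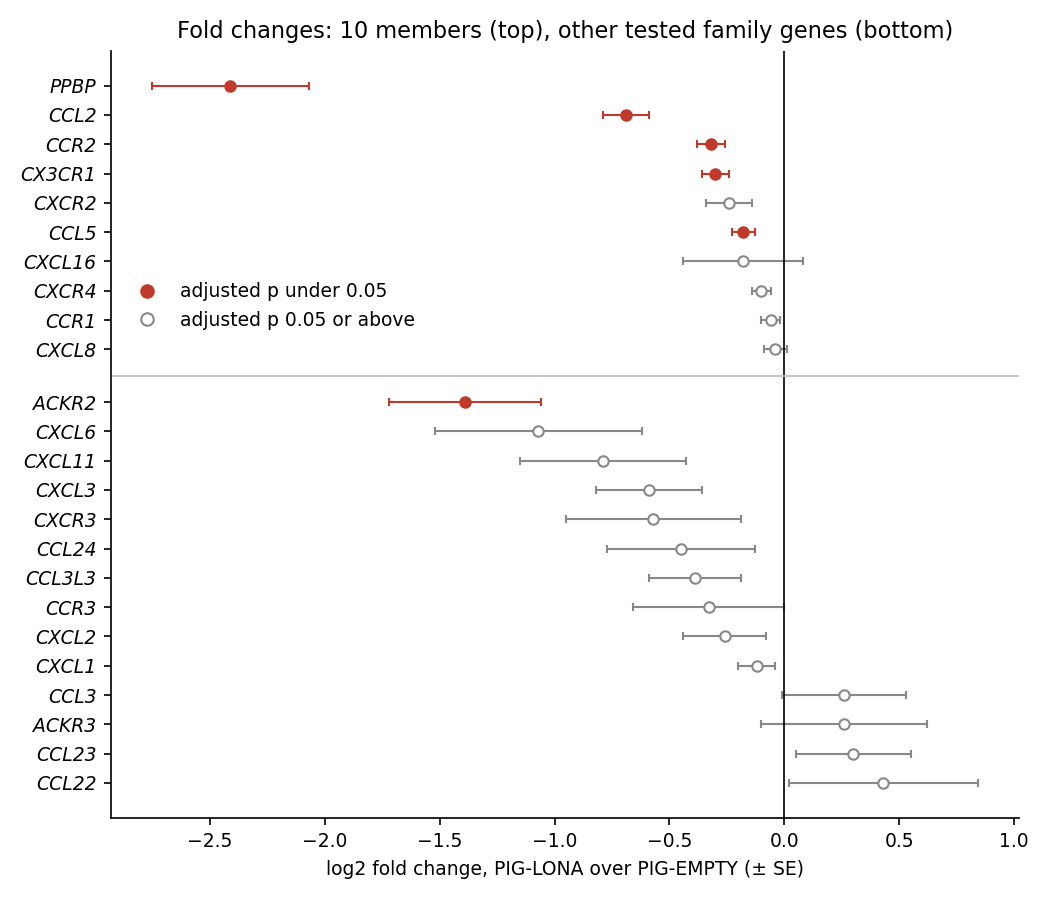
Log2 fold changes of PIG-LONA over PIG-EMPTY with their SE for the 10 genes (upper panel) and the other 14 tested chemokine family genes (lower panel). Filled points have an adjusted p under 0.05 in edgeR, and every filled point lies left of 0.

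The fold changes of ligands and receptors overlapped, and no test was made between them. The 5 ligands ran from −2.41 to −0.04 with a median of −0.18, and the 5 receptors ran from −0.32 to −0.06 with a median of −0.24. PPBP and CCL2 lay below the range of the receptors, CXCL8 lay just above it, and CCL5 and CXCL16 lay within it. In all 5 receptors both PIG-LONA libraries lay below both PIG-EMPTY libraries, against 3 of the 5 ligands and 24.4% of all tested genes. Nothing is read from these counts, because the same comparison chose the genes. The 3 members with over 100 CPM besides CCL5, which are CXCL8, CXCR4 and CCR1, had the 3 values closest to 0.

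**Figure D3:**
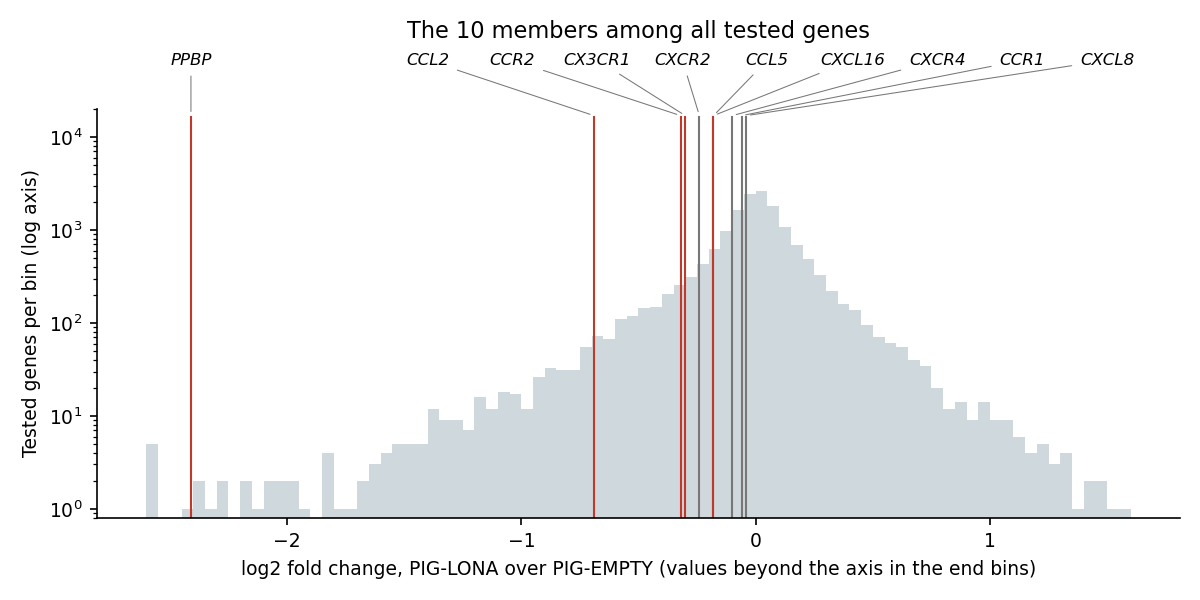
Histogram of the log2 fold change of all 15918 tested genes on a log count axis, with a vertical line for each of the 10 genes (red where the adjusted p was under 0.05). Each line lies left of 0, PPBP at −2.41 in the sparse tail and CXCL8, CCR1 and CXCR4 within the main peak.

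To compare levels between genes, counts were divided by exon length and scaled to TPM. CCL5 led in both groups, at 447 ± 17.9 TPM in PIG-LONA cells and 506 ± 26.3 TPM in PIG-EMPTY cells (SD, n = 2 each). CXCL8 came next at 316 TPM in PIG-LONA cells and 324 TPM in PIG-EMPTY cells. CXCR4 followed at 216 TPM in PIG-LONA cells and 231 TPM in PIG-EMPTY cells, and CCR1 at 197 TPM in PIG-LONA cells and 205 TPM in PIG-EMPTY cells. These 4 genes stood far above the others in every library. CCR2 reached 30 TPM in PIG-LONA cells and 37.4 TPM in PIG-EMPTY cells, and CX3CR1 reached 24.3 TPM in PIG-LONA cells and 29.9 TPM in PIG-EMPTY cells. CCL2 was at 11.9 TPM in PIG-LONA cells and 19.1 TPM in PIG-EMPTY cells, and CXCR2 at 8.76 TPM in PIG-LONA cells and 10.3 TPM in PIG-EMPTY cells. Within a group, none of these neighbours in the order overlapped in their 2 libraries. At the low end, CXCL16 at 1.64 ± 0.571 TPM and PPBP at 1.36 ± 0.594 TPM overlapped in PIG-LONA cells. In PIG-EMPTY cells PPBP, at 7.52 ± 0.405 TPM, stood above CXCL16, at 1.9 ± 0.259 TPM, without overlap.

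Several of the 10 genes pair with each other. The log2 fold change was −0.69 for CCL2 and −0.32 for its receptor CCR2, and −0.18 for CCL5 and −0.06 for its receptor CCR1. For CXCR2 it was −0.24, beside −2.41 for PPBP and −0.04 for CXCL8, both of them ligands of this receptor. For other members the partner was scarce. CX3CL1, the ligand of CX3CR1, and CXCR6, the receptor of CXCL16, had 0 counts in all libraries, as did CXCR1, the second CXCL8 receptor. A count of 0 allows up to 3 counts in a library, which is 0.1 and 0.078 CPM in PIG-LONA libraries and 0.101 and 0.0923 CPM in PIG-EMPTY libraries. CXCL12, the ligand of CXCR4, had 0 and 0 counts in PIG-LONA libraries and 1 and 4 counts in PIG-EMPTY libraries.

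Genes beside the members on the chromosomes were mostly at low level. In the chromosome 4 cluster, CXCL1, a CXCR2 ligand, had 68.9 and 56.8 CPM in PIG-LONA cells and 74.6 and 61.5 CPM in PIG-EMPTY cells, with replicate 1 the higher library in both groups as for CXCL8. Its log2 fold change was −0.12 ± 0.08 (SE; edgeR adjusted p = 0.446), but its adjusted p was 0.0205 with PIG-EMPTY replicate 2 left out and 7.91e-06 with PIG-LONA replicate 1 left out. CXCL6 had 6 and 9 counts in PIG-LONA libraries and 13 and 16 counts in PIG-EMPTY libraries (log2 fold change −1.07 ± 0.45, SE; edgeR adjusted p = 0.192). The groups of CXCL6 did not overlap, but the test was not passed. CXCL3 had 1.24 and 1.22 CPM in PIG-LONA cells and 2.05 and 1.66 CPM in PIG-EMPTY cells (−0.59 ± 0.23, SE; edgeR adjusted p = 0.163), and CXCL2 had 2.27 and 2.36 CPM in PIG-LONA cells and 2.62 and 2.92 CPM in PIG-EMPTY cells (−0.26 ± 0.18, SE; edgeR adjusted p = 0.497). PF4, PF4V1 and CXCL5, of the same cluster, had 0 counts in all libraries. Of the 9 genes of that cluster 6 were tested, and none of the 4 tested genes outside the 10 passed the test.

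Next to CCL2 on chromosome 17, CCL7 had 1 and 2 counts in PIG-LONA libraries and 6 and 7 counts in PIG-EMPTY libraries, below the level that was tested, and it was singled out after its values were seen. The other genes of the CCL2 cluster had at most 1 count. In the CCL5 cluster, CCL3 had 48 and 44 counts in PIG-LONA libraries and 31 and 39 counts in PIG-EMPTY libraries, which gave 0.26 ± 0.27 on the log2 scale (SE; edgeR adjusted p = 0.669). CCL23 stood at 1.34 and 1.87 CPM in PIG-LONA cells and 1.24 and 1.42 CPM in PIG-EMPTY cells, which gave 0.30 ± 0.25 on the log2 scale (SE; edgeR adjusted p = 0.58). Both values were positive while that of CCL5 was negative, and neither passed the test. CCR3, beside CCR1, gave −0.33 ± 0.33 (SE; edgeR adjusted p = 0.66).

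**Figure D4:**
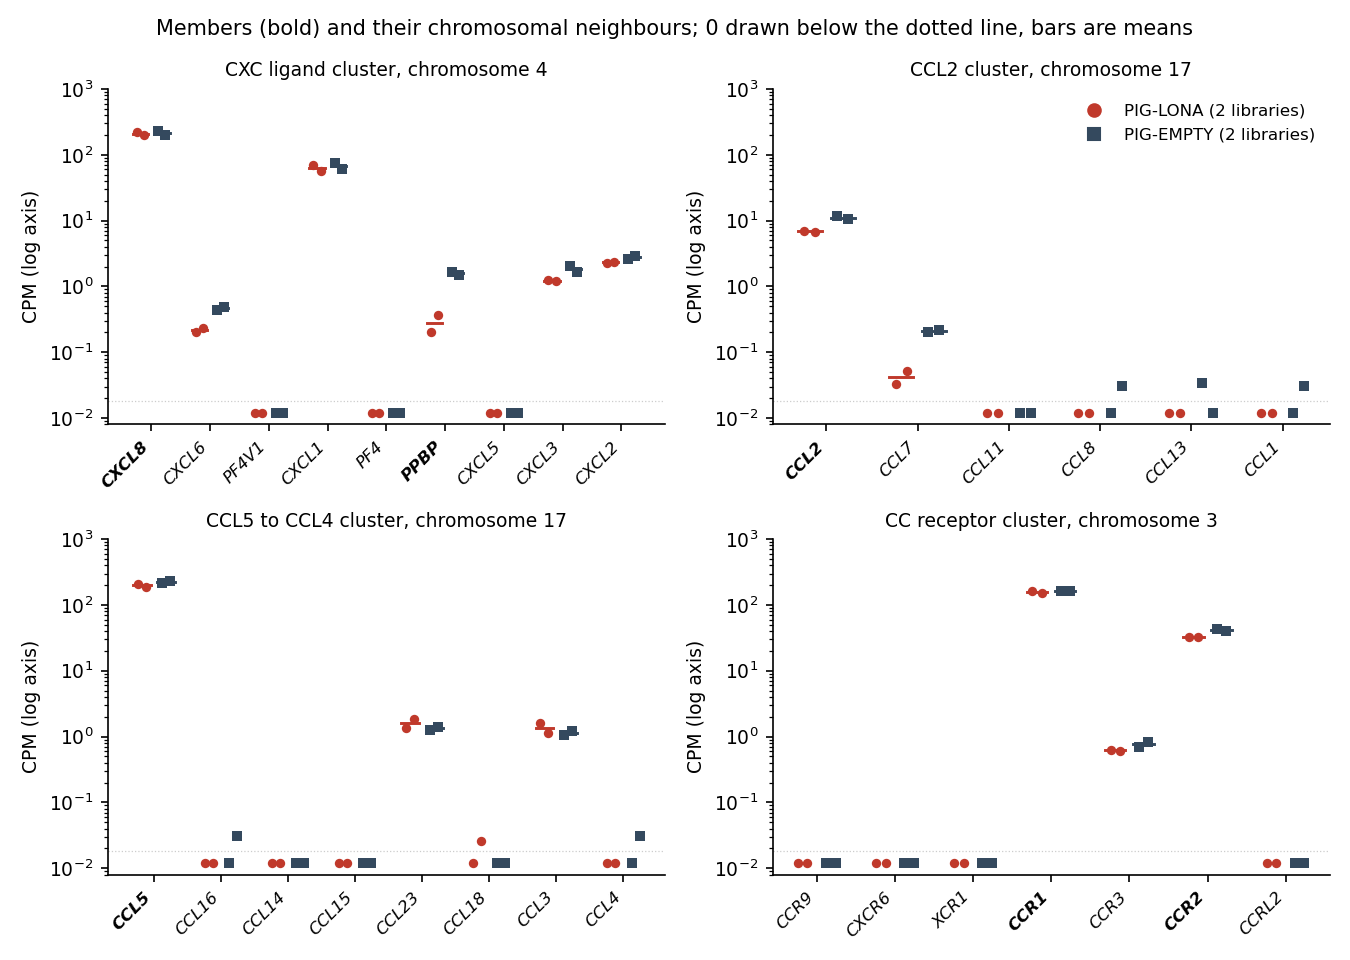
CPM on a log axis of genes in 4 chromosomal clusters in chromosome order, PIG-LONA circles left of PIG-EMPTY squares, with bars at group means and libraries with a count of 0 drawn below the dotted line. Members (bold) stand among genes that are mostly at or near 0.

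Of the 59 family genes outside the 10, 23 had 0 counts in all libraries and 14 were tested, leaving 22 with counts too low to be tested. Of the 14, 10 had a negative log2 fold change and 4 a positive one, with a median of −0.36. The test was passed by 1, the atypical receptor ACKR2, which binds and degrades CC chemokines without G-protein signalling. ACKR2 had 12 and 15 counts in PIG-LONA libraries and 30 and 35 counts in PIG-EMPTY libraries. The means were 0.395 ± 0.00766 CPM in PIG-LONA cells and 1.04 ± 0.0495 CPM in PIG-EMPTY cells (SD, n = 2 each), which gave −1.39 ± 0.33 on the log2 scale (SE; edgeR adjusted p = 0.0128). The adjusted p was 0.117 with PIG-EMPTY replicate 2 left out, 0.0603 with PIG-LONA replicate 2 left out and 0.0576 with no filter on low counts. CCL3L3, which shares reads with near-identical gene copies and is uncertain for that reason, had 1.67 and 2.03 CPM in PIG-LONA cells and 2.52 and 2.4 CPM in PIG-EMPTY cells (−0.39 ± 0.20, SE; edgeR adjusted p = 0.302).

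Downstream of the receptors, 31 genes of receptor signalling and desensitisation were tested, of which 6 passed the test, all of them lower in PIG-LONA cells, with a median of −0.08. The shares to set beside this and the following lists are the 6.43% called and 3.5% called lower over all tested genes, and the lists were chosen with earlier results known. ARRB2, the beta-arrestin that uncouples and internalises activated receptors, averaged 84.1 ± 2.43 CPM in PIG-LONA cells and 102 ± 0.127 CPM in PIG-EMPTY cells (SD, n = 2 each; −0.28 ± 0.04, SE; edgeR adjusted p = 0.000243). RGS19, which speeds the switch-off of inhibitory G proteins, averaged 72.5 ± 1.09 CPM in PIG-LONA cells and 87.4 ± 2.92 CPM in PIG-EMPTY cells (−0.27 ± 0.04, SE; edgeR adjusted p = 0.000602). PREX1, a Rac activator driven by G-protein beta-gamma subunits, gave −0.19 ± 0.04 on the log2 scale (SE; edgeR adjusted p = 0.00606), and GNB2, a G-protein beta subunit, gave −0.16 ± 0.04 (SE; edgeR adjusted p = 0.0068). PREX1 lost the call with no filter on low counts and without PIG-EMPTY replicate 2. GNB2 lost it with no filter on low counts, without PIG-EMPTY replicate 1 and without PIG-EMPTY replicate 2.

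Receptors for other chemoattractants were mostly low, with 8 of 15 tested, 2 lower and a median of −0.62. GPR183, an oxysterol receptor that guides immune cells, averaged 3.96 ± 0.272 CPM in PIG-LONA cells and 6.38 ± 0.937 CPM in PIG-EMPTY cells (SD, n = 2 each; −0.67 ± 0.14, SE; edgeR adjusted p = 0.00475). The GPR183 call was lost with no filter on low counts and without PIG-EMPTY replicate 1. PTAFR, the platelet-activating factor receptor, averaged 2.15 ± 0.117 CPM in PIG-LONA cells and 3.51 ± 0.17 CPM in PIG-EMPTY cells (−0.70 ± 0.17, SE; edgeR adjusted p = 0.0163). The PTAFR call was lost with DESeq2, with no filter on low counts and without PIG-EMPTY replicate 2.

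Proteases that trim or shed chemokines included 13 tested genes, 4 lower and 1 higher, with a median of −0.12. MMP9, a gelatinase that cleaves CXCL8 and other CXC ligands, averaged 37.3 ± 1.6 CPM in PIG-LONA cells and 69.4 ± 0.0185 CPM in PIG-EMPTY cells (SD, n = 2 each; −0.90 ± 0.05, SE; edgeR adjusted p = 3.75e-10). MMP8, the neutrophil collagenase, averaged 2.87 ± 0.135 CPM in PIG-LONA cells and 5.19 ± 0.226 CPM in PIG-EMPTY cells (−0.85 ± 0.15, SE; edgeR adjusted p = 0.000985). DPP4, which removes the first residues of CXCL12 and CCL5, gave −0.29 ± 0.05 on the log2 scale (SE; edgeR adjusted p = 0.000606), and MMP2, named after its values were seen, gave −0.18 ± 0.04 (SE; edgeR adjusted p = 0.003) but lost its call without PIG-EMPTY replicate 2. PRTN3, the granule protease that can activate CXCL8, was the gene that rose, to 185 ± 6.46 CPM in PIG-LONA cells, against 155 ± 4.17 CPM in PIG-EMPTY cells (0.25 ± 0.04, SE; edgeR adjusted p = 0.000437).

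Chemokines are held at the cell surface by proteoglycans, and of 10 tested genes for these and their heparan sulphate chains 2 were lower, with a median of −0.07. SDC2, a syndecan, averaged 149 ± 4.38 CPM in PIG-LONA cells and 189 ± 0.437 CPM in PIG-EMPTY cells (SD, n = 2 each; −0.34 ± 0.04, SE; edgeR adjusted p = 1.08e-05), and CD44, a hyaluronan receptor, gave −0.12 ± 0.04 (SE; edgeR adjusted p = 0.0423). The CD44 call was lost with DESeq2, with no filter on low counts, without chromosome 6 genes and with either PIG-EMPTY library left out. Among 21 tested inducible regulators of chemokine genes, 5 were lower, with a median of −0.06. FOS, a subunit of AP-1, averaged 26.9 ± 0.532 CPM in PIG-LONA cells and 35.1 ± 0.52 CPM in PIG-EMPTY cells (−0.38 ± 0.06, SE; edgeR adjusted p = 0.000243). CEBPB and CEBPD, C/EBP family factors of the inflammatory response, gave −0.39 ± 0.08 (SE; edgeR adjusted p = 0.00293) and −0.25 ± 0.05 (SE; edgeR adjusted p = 0.00185). RELB, an NF-kappaB subunit, gave −0.27 ± 0.08 (SE; edgeR adjusted p = 0.0447), and TNFAIP3, an inhibitor of that pathway named after its values were seen, −0.19 ± 0.06 (SE; edgeR adjusted p = 0.0483). The RELB call was lost under 8 of 13 alternatives, and the TNFAIP3 call under 7. Both were lost with DESeq2, limma-voom, library totals alone and no filter on low counts. They were also lost with PIG-EMPTY replicate 1, PIG-EMPTY replicate 2 or PIG-LONA replicate 2 left out. TNFAIP3 lies on chromosome 6, so the alternative without chromosome 6 genes gave it no value. CEBPB lost its call with DESeq2 (adjusted p = 0.393) and with no filter on low counts, and CEBPD with no filter and with PIG-EMPTY replicate 1 left out. IL6 had 0 counts in all libraries.

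Monocyte markers moved in the same direction as the members. Of 12 such genes 11 were tested and 10 were lower in PIG-LONA cells, with a median log2 fold change of −0.70. Their summed level was 249 and 265 CPM in PIG-LONA cells, against 430 and 424 CPM in PIG-EMPTY cells. VCAN was the largest part of these sums, with means of 120 CPM in PIG-LONA cells and 202 CPM in PIG-EMPTY cells. CD68, which was not tested, had 4 and 5 counts in PIG-LONA libraries and 4 and 8 counts in PIG-EMPTY libraries. CD14 was at 8.79 ± 0.971 CPM in PIG-LONA cells and 12.6 ± 1.48 CPM in PIG-EMPTY cells (SD, n = 2 each; −0.53 ± 0.10, SE; edgeR adjusted p = 0.00318). The CD14 call was lost with no filter on low counts and without PIG-EMPTY replicate 2. CCR2, CCL2, CX3CR1 and CCR1 are themselves genes of monocytes, and the part of this marker difference in their values was not tested. In these bulk libraries, fewer cells of a type and less RNA per cell cannot be told apart. The summed level of 10 myeloid leukaemia markers was 1440 and 1360 CPM in PIG-LONA cells and 1410 and 1390 CPM in PIG-EMPTY cells, with FLT3 higher, SPI1 lower and the other 7 tested not past the threshold. The SPI1 call was lost with DESeq2, with no filter on low counts, without chromosome 6 genes and with either PIG-EMPTY library left out. T and NK cell markers summed to 1.94 and 1.51 CPM in PIG-LONA cells and 2.25 and 2.18 CPM in PIG-EMPTY cells, with CD3D, CD3E, CD3G, CD2 and KLRD1 at 0 counts. B cell markers summed to 1.3 and 1.14 CPM in PIG-LONA cells and 1.14 and 1.11 CPM in PIG-EMPTY cells, with MS4A1 at 0, and 5 of 6 erythroid markers had 0 counts. Stromal and endothelial markers summed to 27.4 and 27.3 CPM in PIG-LONA cells and 33.7 and 34.8 CPM in PIG-EMPTY cells, nearly all of it from PECAM1, which leukocytes also express.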

How the data were processed

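Poly(A) RNA of 4 GFP-sorted OCI-AML3 cultures was sequenced from directional libraries, per the labels' protocols. The deposited values are raw read counts per Ensembl gene, 1 column per library. FastQC 0.11.4, STAR 2.5, HTSeq and the build hg38 are listed, per the submitters' processing notes. Which annotation and strand setting the counting used is not given in the sources used, so reads of overlapping genes on opposite strands cannot be told apart. Symbols matched 60402 of 67062 rows, and rows without one held 0.0712% to 0.0743% of each library. Coordinates and exon lengths for TPM came from GENCODE 29 on GRCh38.

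Genes passing filterByExpr (minimum count 10, minimum total 15) were fitted with edgeR 4.0.16 in R 4.3.3 (TMM scaling, glmQLFit with legacy off, glmQLFTest, group as the only term, two-sided), and p was adjusted over all 15918 tested genes by Benjamini-Hochberg. The SE is the size of the log2 fold change divided by the square root of F. The common biological coefficient of variation, estimated apart from this fit, was 2.95%, and totals ran from 29819572 to 38358442 counts. The chi-square per gene between replicates was 4.67 in PIG-LONA and 1.76 in PIG-EMPTY libraries, both above counting noise, so no pair was treated as 1 library deposited again. The fit was tested on simulated data. The 10 genes and all lists were chosen with earlier results of these data known. Genes named beside them were every called family gene, the 5 other family genes of highest mean CPM, up to 4 called genes per pathway list by smallest p, and cluster neighbours with a count of 10 or more. Genes named outside this rule (CXCL12, CX3CL1, CCL7, MMP2, TNFAIP3, genes with 0 counts and cell type markers) were chosen after their values were seen. A gene that the rule would name is not reported here. Alternatives included DESeq2 1.42.0, limma-voom (limma 3.58.1), other scalings and filters, leaving out each library and a replicate block. Intervals and the limit for a count of 0 cover counting error only.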

Additional observations from a re-analysis of the deposited data

How the results depend on the processing

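Across 13 alternatives, the direction of CCL2, CCL5, PPBP, CCR1, CCR2, CXCR4, CX3CR1 and CXCR2 stayed negative, while CXCL8 ran from −0.12 to 0.05 and CXCL16 from −0.59 to 0.07 on the log2 scale. CCL2 (−0.76 to −0.61), PPBP (−2.95 to −2.10) and CCR2 (−0.37 to −0.27) kept their call wherever an adjusted p was given. Among the 10, DESeq2 gave none for PPBP and CXCL16, and it gave none for ACKR2 and most other tested family genes. The count of called genes, 1024 in edgeR, was 473 with the DESeq2 Wald test, 334 without the filter on low counts, 660 without chromosome 6 genes and 466 to 2329 in the leave-one-out fits, and the cause was not tested. Of the 10 genes, 5 were called in edgeR, 3 without the filter on low counts and 3 to 7 in the leave-one-out fits. Of the other family genes, 1 was called in edgeR, 0 by DESeq2 (which gave an adjusted p for 3 of the 14, with 1 of the 14 at an unadjusted p under 0.05), 0 without the filter (9 at an unadjusted p under 0.05 in edgeR) and 0 to 2 in the leave-one-out fits, where the 0 came without PIG-LONA replicate 2 (2 at an unadjusted p under 0.05). The deviations of same-numbered libraries had a correlation of 0.0288. With 2 libraries per group, this value cannot show whether the numbers pair the samples. A fit with a replicate block called 1101 genes, 5 of the 10 and 1 other family gene. Of single values for the 10 genes, 4 lost and 2 gained a call, and of those for the other named genes 45 lost and 2 gained one. The median of all genes moved by no more than from −0.009 to 0.002 under any setting. With 2 libraries per group, a difference in CXCL16 was not detectable within its SE at 31 to 63 counts per library.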
